A study of Mus musculus with 13 samples.

Results

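Osteopontin (Spp1) and 7 genes of the osteoblast programme, Sp7, Runx2, Alpl, Ibsp, Dmp1, Bglap and Phex, were followed across fibroblasts converted towards thymic epithelium. They are 8 of the 24394 genes in the count table and were taken by symbol. They were chosen by measured values of these same libraries: Spp1 was the most abundant gene at day 2 and lower later, and Sp7 and Alpl differed in the later cultures. Their levels at day 2, at day 10 and in Epcam-negative cells beside fibroblasts, those of Sp7 and Alpl in the Epcam sort, and those of Spp1, Sp7 and Alpl in fetal TEC beside day 10, are therefore a description with no test. The fetal comparison with fibroblasts was not used in the choice, but its fibroblast libraries also served as the baseline there. Nor did the Epcam sort choose Spp1, but its Epcam-negative libraries were among the later ones in which Spp1 was lower.

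RNA sequencing covered 13 libraries in 6 groups, among them 2 of untreated mouse embryonic fibroblasts (MEF) from E13.5 embryos. In primary iFoxn1/+ MEF, Cre from a pPGK-Cre plasmid introduced by nucleofection switches on a Foxn1 transgene, and the resulting cells are called induced thymic epithelial cells (iTEC). The study asks how far these cells come to resemble thymic epithelial cells (TEC). There were 2 libraries at day 2, 3 at day 10, 2 of Epcam-negative and 2 of Epcam-positive cells sorted at day 12, and 2 of untreated fetal TEC of E15.5. The genotype field is not filled in for any library, 1 protocol text stands under all of them, and the sources used here do not give how the fetal TEC were isolated. The labels do not state whether replicates of a group came from different cultures or embryos; every p-value measures the spread between these libraries, which may be technical.

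Runx2 is the transcription factor that commits mesenchymal cells to the osteoblast lineage, and Sp7 (osterix) acts downstream of it. Committed osteoblasts make the phosphate-releasing ectoenzyme alkaline phosphatase (Alpl), and later the mineral-binding matrix proteins bone sialoprotein (Ibsp), Dmp1 and osteocalcin (Bglap). Osteopontin is a secreted, integrin-binding phosphoprotein of bone that macrophages, activated fibroblasts and many epithelia also make.

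Foxn1 stood at 18.3 and 13 CPM (counts scaled to the effective library total) in the MEF libraries and between 292 and 467.7 in the other 11, which fits the labels. Library totals ran from 35805780 to 86465460 counts, and the limit set by 3 counts was 0.0300 to 0.0776 CPM. The 3 libraries Epcam-positive replicate 2 and both fetal TEC stood apart: the rank correlation of count with exon length was 0.038 to 0.087 in them and 0.351 to 0.396 in the other 10. The Epcam-positive pair was the least alike of all replicate pairs, and Epcam itself stood at 4.80 and 30.6 CPM in that pair, beside 0.560 and 0.290 in Epcam-negative cells and 312.3 and 573.8 in fetal TEC. The day 10 libraries had 5.03, 5.05 and 5.53 CPM, so Epcam-positive replicate 1 was not above them. Xist was at 687.7 to 2475 CPM in the MEF and Epcam-negative libraries, where 4 Y-linked genes summed to at most 0.0144, while Xist was at most 1.27 in day 2, day 10 and Epcam-positive libraries. The Y-linked sum was 65.6 to 301.6 CPM in those libraries, and fetal TEC had Xist at 6.17 and 10.6 CPM beside a Y-linked sum of 41.6 and 42.3 CPM. In comparisons of MEF or Epcam-negative cells with any of these other groups, sex of the embryos therefore cannot be told apart from the group. By these genes the Epcam-negative and Epcam-positive libraries came from different embryos, and the MEF libraries from other embryos than those of day 2 and day 10. The sorted groups are thus not paired fractions of the same cells, and the groups as a set are not successive times of 1 culture. Among the day 2, day 10 and Epcam-positive libraries, which are alike in these genes, they do not show whether the embryos differed. In bulk RNA, fewer cells of a type and less RNA per cell also cannot be told apart.

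Spp1, Ibsp and Dmp1 are neighbours on mouse chromosome 5, in a cluster of bone-matrix phosphoprotein genes, and Ibsp was highest in another group than Spp1 and Dmp1. For that reason their proximal promoters are shown (RefSeq, GRCm38.p6; 250 bases before the start), with that of Bglap, a gene used in many studies as a reporter of Runx2. Capitals mark the Runx core ACCACA, searched on both strands; its other strand reads TGTGGT.
Spp1, chr5:104434861-104435110, plus strand: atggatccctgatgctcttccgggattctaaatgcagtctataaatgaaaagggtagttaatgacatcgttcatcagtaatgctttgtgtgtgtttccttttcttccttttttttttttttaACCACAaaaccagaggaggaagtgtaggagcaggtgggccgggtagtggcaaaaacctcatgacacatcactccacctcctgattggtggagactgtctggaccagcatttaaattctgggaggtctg
Dmp1, chr5:104202367-104202616, plus strand: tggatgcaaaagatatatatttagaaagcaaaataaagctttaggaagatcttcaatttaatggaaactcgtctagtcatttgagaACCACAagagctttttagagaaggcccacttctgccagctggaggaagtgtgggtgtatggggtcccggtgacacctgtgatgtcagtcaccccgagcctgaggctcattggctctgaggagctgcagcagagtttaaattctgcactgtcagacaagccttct
Ibsp, chr5:104299037-104299286, plus strand: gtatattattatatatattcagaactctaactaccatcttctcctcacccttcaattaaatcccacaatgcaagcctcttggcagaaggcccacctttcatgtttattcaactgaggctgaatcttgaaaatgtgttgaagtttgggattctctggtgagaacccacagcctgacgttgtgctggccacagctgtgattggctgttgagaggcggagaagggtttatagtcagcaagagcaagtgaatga
Bglap, chr3:88384467-88384716, minus strand: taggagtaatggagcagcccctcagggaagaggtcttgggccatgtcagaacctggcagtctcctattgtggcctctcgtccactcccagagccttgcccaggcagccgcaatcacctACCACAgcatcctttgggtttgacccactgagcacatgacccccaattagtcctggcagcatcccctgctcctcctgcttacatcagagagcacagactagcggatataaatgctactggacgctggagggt
The core lies 128 bases before the start in Spp1, 164 in Dmp1 and 132 in Bglap, and the letters are not in the Ibsp window. Spp1 and Dmp1 each have a second promoter in the table, and neither of those holds the core. A further match lies 80 bases before the RefSeq start of Runx2. RefSeq starts can differ from the GENCODE gene positions given below: that match lies inside Runx2 as GENCODE places it, and the Ibsp window also runs into its gene. It is a short motif that 14.0% of the 32851 promoters in the RefSeq table hold, so a match is a description of the letters and not a binding site. The 7 members in that table have 10 promoters between them. The AP-1 element TGANTCA is in none of the 10 (6.75% of all promoters), and the core GACGC of Foxn-family factors is in those of Bglap and the second start of Alpl (22.6% of all). Alpl's first promoter holds 2 overlapping GC boxes, GGGCGG, the kind of site Sp-family factors bind (32.7% of all).

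Spp1 (chromosome 5, 104435118 to 104441050, plus strand, mm10 with GENCODE annotation) stood at 1844 and 1853 CPM in MEF, at 18400 and 16620 CPM at day 2, and at 108.8, 108.5 and 133.4 CPM at day 10. It was at 130.2 and 89.2 CPM in Epcam-negative cells, at 859.3 and 1203 CPM in Epcam-positive cells, and at 64.2 and 96.0 CPM in fetal TEC. Day 2 was the highest group, MEF came next and then Epcam-positive cells, and none of these overlapped its neighbour in that order; the day 10, Epcam-negative and fetal ranges ran into one another. At day 2 this 1 gene took 1.92% and 1.79% of all counts (1014669 and 1279772 counts) and ranked first in both libraries, also per kilobase of exon. The day 2 mean, 17510 ± 1258 CPM (SD, n = 2), was 9.47 times the MEF mean of 1849 ± 6.69 CPM and 149.8 times the day 10 mean of 116.9 ± 14.3 CPM (n = 3). The MEF mean in turn was 15.8 times that of day 10 and 16.9 times that of Epcam-negative cells. By rank, Spp1 went from 36th and 43rd in MEF to first at day 2 and to between 1554th and 2024th at day 10.

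Because macrophages also make Spp1, 12 macrophage markers were summed beside it. The sum was 2984 and 3155 CPM in MEF, 11.8 and 13.52 CPM at day 2, and 15.9 to 16.3 CPM at day 10. In day 2, day 10 and Epcam-negative libraries the defining markers Adgre1 and C1qa were at 0. The day 2 level of Spp1 was thus measured where these markers were near 0, while in MEF and in fetal TEC (514.6 and 550.2 CPM) macrophage RNA was present and its part in the Spp1 level was not tested. Sums for chondrocyte markers (52.8 to 69.1 CPM) and tendon markers (23.8 to 39.7 CPM) lay within 1 order of magnitude in MEF and day 2.

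**Figure D1:**
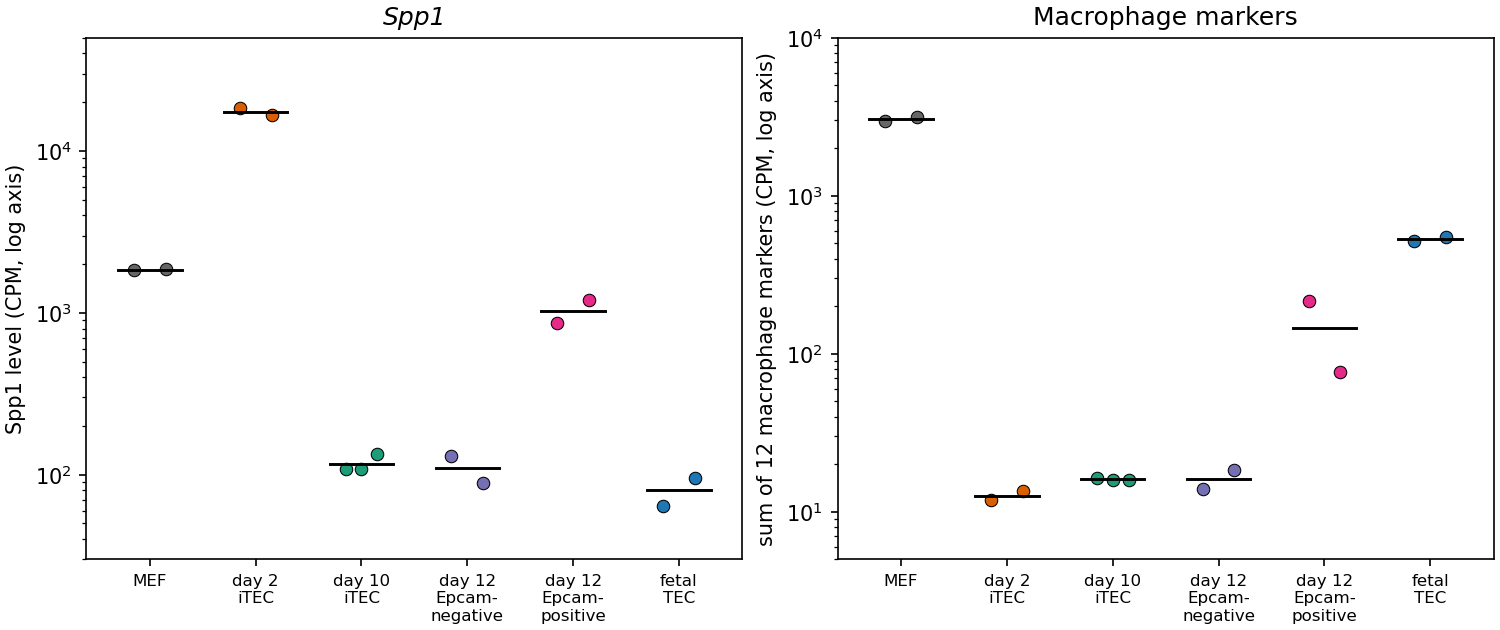
Spp1 (left) and the sum of 12 macrophage markers (right) in each library, in CPM on a log axis; points are libraries and bars are group means. Spp1 peaks at 16620 to 18400 CPM at day 2, where the marker sum is 11.83 to 13.52 CPM.

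In the Epcam sort, Spp1 was higher in Epcam-positive cells: 1031 ± 243 against 109.7 ± 29.1 CPM (SD, n = 2 each), or 9.40 times, with no overlap. The sort itself did not choose Spp1, but low values in the Epcam-negative libraries were part of the choice. The p-values given here are therefore not independent of that choice. The log2 difference was 3.23 ± 0.38 (SE; adjusted p = 0.02 by edgeR's quasi-likelihood test with Benjamini-Hochberg adjustment over all genes tested). Of all genes, 0.259% were called in this comparison, 0.241% higher and 0.0176% lower. The size held at 2.81 to 3.53 under 22 other settings, but the call held in 12 of them. Not every setting that lost the call is named here. It was lost without MEF replicate 1 (adjusted p = 0.0517), without either day 2 library (0.0609 and 0.0616) or any day 10 library (0.0808 to 0.0848), and without Epcam-negative replicate 1 (0.208) or 2 (0.345). It was also lost when only the 4 sorted libraries were fitted (adjusted p = 0.836). Without Epcam-positive replicate 1 or 2 it remained (adjusted p = 2.43e-05 and 0.00146). The sum of the macrophage markers was also higher, at 215.2 and 76.5 CPM in Epcam-positive replicates 1 and 2 against 13.9 and 18.5 CPM in Epcam-negative cells. Cd14 alone made up 10.2 and 64.7 CPM of the Epcam-positive sums, and 9.93 and 14.25 CPM of the Epcam-negative ones. In replicate 2, where Spp1 was the higher of the pair, 6 of the 12 were at 0, Adgre1 and C1qa among them. Lyz2, Cd68 and C1qc stood at 4.72, 4.90 and 1.69 CPM in it, beside at most 0.216, 1.44 and 0 CPM in Epcam-negative cells. Mrc1, Itgam and Ptprc were lower in it than in both Epcam-negative libraries. Epcam-positive replicate 2 is 1 of the 3 libraries with the length skew. Osteoclast markers were at 145.1 and 381 CPM against 45.1 to 48.5. Of these Ctsk, a collagen-degrading protease also made by fibroblasts, supplied 131.1 and 285.8 CPM. Acp5 was at 8.38 and 85.4 CPM against 3.88 and 7.73, and Tnfrsf11a at 5.22 and 9.83 CPM against 3.41 and 4.17. Calcr, Ocstamp, Dcstamp and Oscar were each at most 0.280 CPM in all sorted libraries, with Calcr at 0 in every one of them. The part of either cell type in the Spp1 difference was not tested.

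Against MEF, Spp1 was lower in fetal TEC, with a log2 difference of -4.53 ± 0.41 (edgeR adjusted p = 7.44e-05), the MEF mean being 23.1 times the fetal mean of 80.1 ± 22.5 CPM. A gene-length offset, added after seeing the data because the fetal libraries differ in length bias, gave a log2 difference of -6.16 (adjusted p = 1.22e-05). Beside day 10, whose libraries helped to choose the gene, the fetal range of 64.2 to 96.0 CPM lay below the 108.5 to 133.4 CPM of iTEC. The log2 difference there was -0.55 with TMM scaling, -0.88 with library size alone and -1.87 with the length offset.

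Sp7, the osteoblast factor downstream of Runx2 (chromosome 15, 102356606 to 102367182, minus strand), was almost silent in MEF, at 0.194 and 0.140 CPM. It stood at 12.1 and 10.5 CPM at day 2, at 67.3, 66.6 and 62.4 CPM at day 10 and at 140.3 and 118.2 CPM in Epcam-negative cells. In Epcam-positive cells it was at 74.9 and 20.1 CPM, and in fetal TEC at 0.995 and 0.162 CPM. The 4 groups MEF, day 2, day 10 and Epcam-negative thus followed one another with no overlap, while Epcam-positive cells overlapped day 10, and fetal TEC overlapped MEF. The means at day 2 (11.3 ± 1.08 CPM), day 10 (65.4 ± 2.65 CPM) and in Epcam-negative cells (129.3 ± 15.6 CPM) were 67.7, 391.9 and 774.4 times the MEF mean of 0.167 CPM. Both Epcam-positive libraries (mean 47.5 ± 38.8 CPM) lay below both Epcam-negative ones, by an amount that differed between the pair.

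Runx2 (chromosome 17, 44495987 to 44814797, minus strand) did not share that order of groups. It stood at 47.1 and 71.7 CPM in MEF, at 39.5 and 31.7 CPM at day 2, at 33.4, 34.3 and 30.1 CPM at day 10, and at 58.9 and 49.9 CPM in Epcam-negative cells. Epcam-positive cells had 38.4 and 3.98 CPM and fetal TEC 0.658 and 0.203 CPM. Sp7 therefore stood high in cells where Runx2 was at or below its MEF level: the MEF mean of Runx2 was 1.67 times that of day 2 and 1.82 times that of day 10, and overlapped Epcam-negative cells. Runx2 overlaps Supt3 and 3 annotated antisense genes, and the sources used here do not say whether the counting used strand.

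Fetal TEC carried little of either factor. Sp7, at 0.995 and 0.162 CPM, lay below every day 10 library (62.4 to 67.3 CPM), which is a description since day 10 helped to choose the gene. Runx2 was lower than at day 10, with a log2 difference of -6.22 ± 1.01 (edgeR adjusted p = 0.0011). Leaving out fetal replicate 1 or 2 gave -7.32 and -5.63, and the length offset gave -4.90, all past the threshold. Against MEF, the Runx2 log2 difference was -7.08 ± 1.06 (adjusted p = 0.000945; -5.76 with the length offset and -8.19 without fetal replicate 1). Sp7 did not differ from MEF past the threshold, at a log2 difference of 1.79 ± 0.80 (adjusted p = 0.08). That value rested on fetal replicate 1: without it the difference was -0.065, and without replicate 2 it was 2.54 (adjusted p = 0.0211). In the sort, Runx2 gave -1.36 ± 0.82 (adjusted p = 0.389). Without Epcam-positive replicate 1, which leaves the length-skewed library alone, it gave -3.77 (adjusted p = 0.000629).

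**Figure D2:**
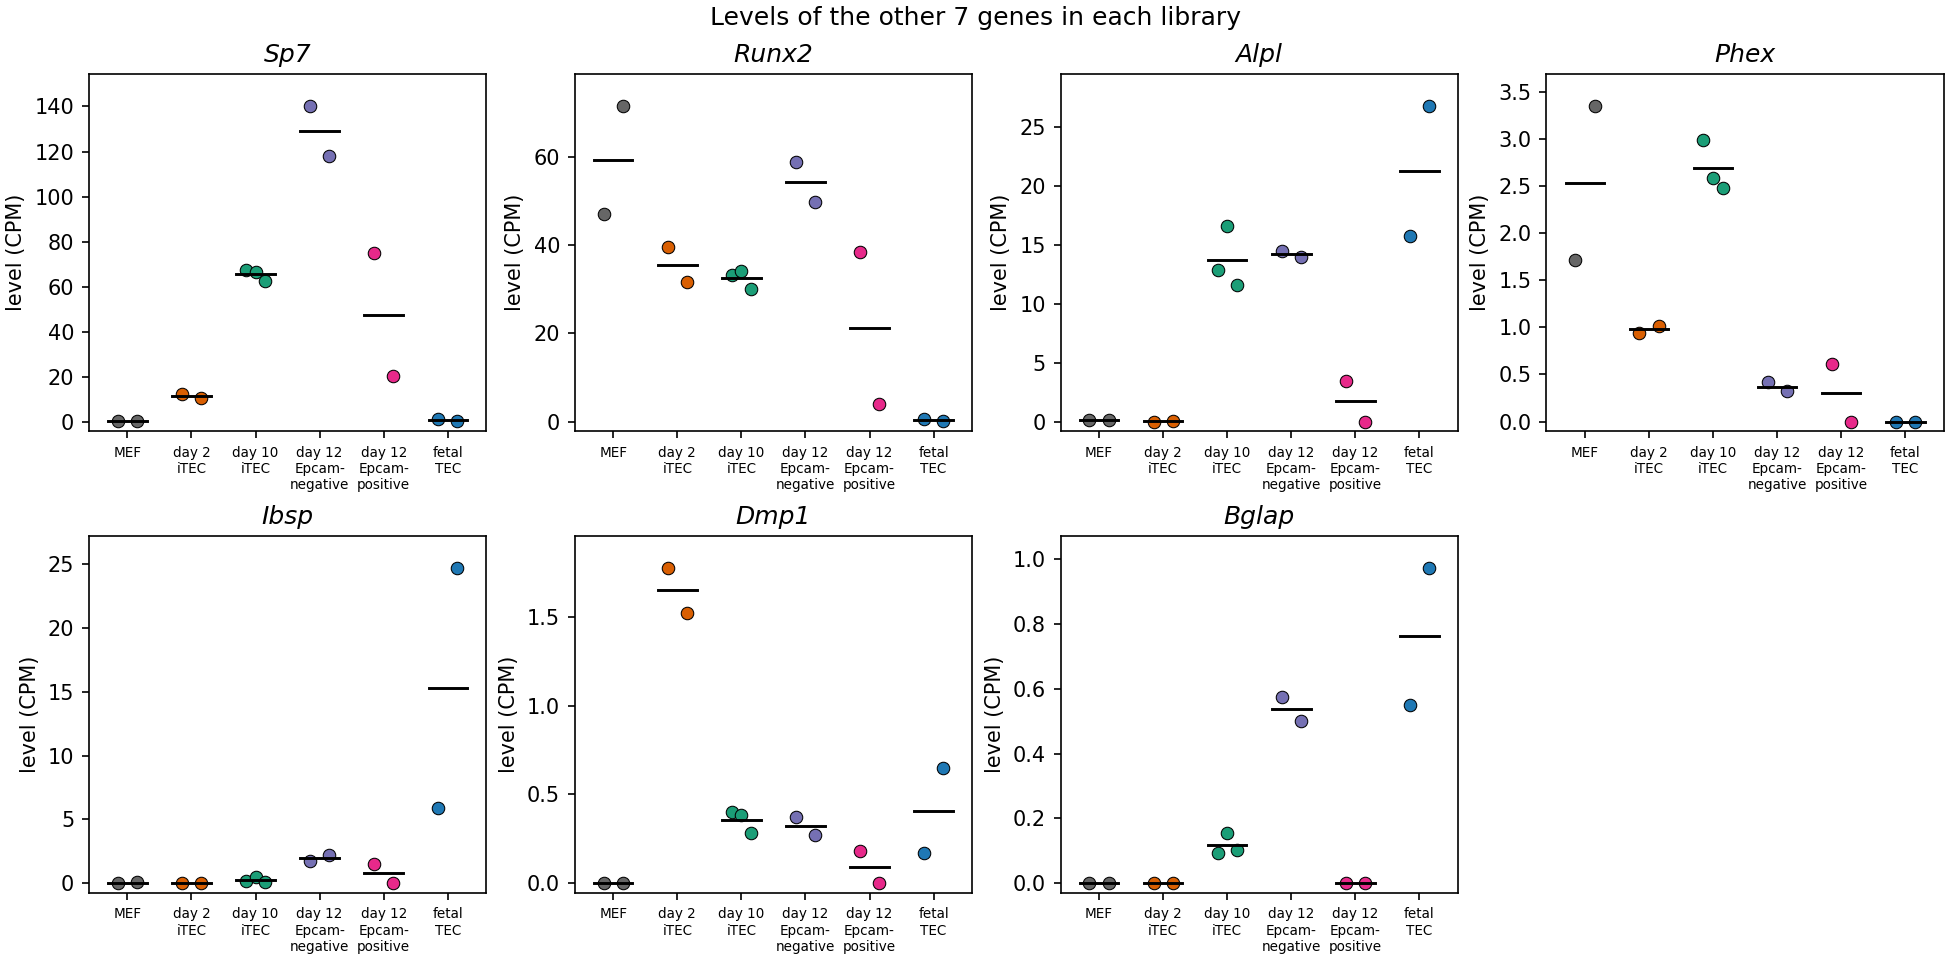
Levels of the other 7 genes in each library, in CPM on linear axes that each start at 0; points are libraries and bars are group means. Sp7 steps up from MEF to Epcam-negative cells (0.167 to 129.3 CPM in the means), while Runx2 does not, and Ibsp and Bglap stay under 2.2 CPM outside fetal TEC.

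Alpl (chromosome 4, 137741733 to 137796384, minus strand), the enzyme that frees phosphate for mineral, was at 0.152 and 0.120 CPM in MEF and at 0 and 0.0520 CPM at day 2, the latter resting on 4 counts. It was at 12.9, 16.7 and 11.6 CPM at day 10, at 14.5 and 14.0 CPM in Epcam-negative cells, at 3.42 and 0 CPM in Epcam-positive cells and at 15.8 and 26.8 CPM in fetal TEC. Unlike Sp7, Alpl was thus not yet raised at day 2, and its highest group was fetal TEC. The day 10 mean, 13.7 ± 2.61 CPM, was 100.8 times that of MEF. All 4 counts at day 2 came from 1 library, so no ratio is given against that group. Both Epcam-positive libraries lay below both Epcam-negative ones (mean 14.3 ± 0.395 CPM), and replicate 2 of the former had no count. Fetal TEC exceeded MEF by 7.26 ± 1.82 on the log2 scale (edgeR adjusted p = 0.00901), a call lost without MEF replicate 1 (0.0584) or 2 (0.0726). Fetal TEC and day 10 overlapped.

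Phex (X chromosome, 157162075 to 157415312, minus strand), a membrane endopeptidase of osteoblasts and osteocytes that keeps phosphate in balance, was highest at day 10 (2.99, 2.59 and 2.48 CPM) and in MEF (1.71 and 3.35 CPM). It was at 0.943 and 1.01 CPM at day 2, at 0.417 and 0.320 CPM in Epcam-negative cells, at 0.610 and 0 CPM in Epcam-positive cells and at 0 in both fetal libraries. Day 10 and MEF overlapped, and the MEF mean was 2.59 times that of day 2 and 6.87 times that of Epcam-negative cells. Fetal TEC was at least 91.0-fold lower than MEF (edgeR adjusted p = 0.00545) and at least 104.7-fold lower than day 10 (adjusted p = 0.00433), both against 3 counts over the group. Without fetal replicate 1 these bounds were 39.2 and 45.1. Both fetal libraries are among the 3 with the length skew, and Phex has 6291 bases of exon. The bounds carry no length correction, so their size is uncertain, though both calls remained with the length offset. The gene is X-linked, and the part of embryo sex in these levels was not tested. In the sort the log2 difference was -0.22 ± 1.27 (adjusted p = 0.963), and -7.47 (adjusted p = 0.00298) without Epcam-positive replicate 1.

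The late mineral-binding matrix genes stayed low in iTEC. Ibsp (chromosome 5, 104299171 to 104311469, plus strand) had 6 counts in both MEF libraries together and 2 in both day 2 libraries. It was at 0.186, 0.487 and 0.103 CPM at day 10, at 1.74 and 2.19 CPM in Epcam-negative cells, at 1.54 and 0 CPM in Epcam-positive cells and at 5.92 and 24.7 CPM in fetal TEC. Fetal TEC stood above every other library and Epcam-negative cells above the remaining ones. The Epcam-negative mean was 1.97 ± 0.320 CPM. The day 10 to day 2 ratio was 16.3 with a 95% interval of 4.17 to 139.4, which covers counting error only. Fetal TEC exceeded MEF by a log2 difference of 8.05 ± 2.29 (edgeR adjusted p = 0.0151; 6.57 with the length offset) and day 10 by 5.89 ± 1.71 (adjusted p = 0.0155; 4.72 with the offset). The first call was lost without MEF replicate 1 (6.99, adjusted p = 0.0783) or fetal replicate 2 (6.67, adjusted p = 0.051). The second was lost without day 10 replicate 1 (0.0574) or 3 (0.057), without fetal replicate 2 (4.51, adjusted p = 0.0746) and with a replicate block (0.0768).

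Dmp1 (chromosome 5, 104202613 to 104214102, plus strand), a matrix phosphoprotein typical of osteocytes, had its highest level at day 2, at 1.78 and 1.52 CPM (215 counts), and no count in either MEF library. It was at 0.403, 0.384 and 0.284 CPM at day 10, at 0.374 and 0.270 CPM in Epcam-negative cells, at 0.184 and 0 CPM in Epcam-positive cells and at 0.168 and 0.649 CPM in fetal TEC. Day 2 stood above all other libraries, as it did for Spp1, though the level was low. The day 2 mean was at least 66.3 times that of MEF (at least 27.1 without MEF replicate 1) and 4.62 times that of day 10. Fetal TEC was at least 15.3-fold higher than MEF (edgeR adjusted p = 0.0112), a call lost without MEF replicate 1 (0.0569, at least 6.23-fold) or 2 (0.0576). Fetal TEC and day 10 gave a log2 difference of 0.19 ± 1.11 (adjusted p = 0.921).

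Bglap (chromosome 3, 88383501 to 88384464, minus strand), osteocalcin, had no count in MEF, at day 2 or in Epcam-positive cells. It was at 0.0929, 0.154 and 0.103 CPM at day 10 (16 counts), at 0.575 and 0.500 CPM in Epcam-negative cells (90 counts) and at 0.551 and 0.973 CPM in fetal TEC (84 counts). The Epcam-negative and fetal ranges overlapped, and both lay above day 10. It has the near-identical copies Bglap2 and Bglap3 (up to 2.53 and 5.58 CPM in fetal TEC), between which reads may have been split, so its level is uncertain. Fetal TEC was at least 29.9-fold higher than MEF (edgeR adjusted p = 0.00354; at least 12.2-fold without MEF replicate 1). Above day 10 the log2 difference was 2.70 ± 0.83 (adjusted p = 0.0276), which the length offset took to 1.32 (adjusted p = 0.204) and the DESeq2 Wald test to an adjusted p of 0.102. That call was also lost without either day 2 library (both 0.0548), any day 10 library (0.0695 to 0.103), either Epcam-negative library (0.0877 and 0.087) or fetal replicate 2 (0.0893). In the sort, Epcam-positive cells were at least 22.3-fold lower, which was not called (adjusted p = 0.104; at least 6.89-fold and adjusted p = 0.0123 without Epcam-positive replicate 1). Ibsp and Dmp1 gave log2 differences of -1.32 ± 1.68 (adjusted p = 0.674) and -1.68 ± 1.26 (adjusted p = 0.486) there. Without Epcam-positive replicate 1 they were -9.89 (adjusted p = 0.0205) and -7.28 (adjusted p = 0.0153).

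The other genes on that stretch of chromosome 5 had no peak of that size at day 2. Mepe, 109.8 kb before Spp1, and Dspp, 264.4 kb before it, are matrix genes of bone and of dentin. Mepe had a count in fetal replicate 1 only (0.0612 CPM) and Dspp in no library. Sparcl1, which encodes an extracellular matrix glycoprotein and lies 356.0 kb before Spp1, was at 0.594 and 1.04 CPM in MEF, at 0.852 and 0.896 CPM at day 2 and at 53.1, 42.4 and 49.9 CPM at day 10. It rose by 5.79 on the log2 scale from day 2 to day 10 (edgeR adjusted p = 0.00015), the interval over which Spp1 was lower. Pkd2, a calcium-permeable channel gene 24.3 kb after the start of Spp1, was at 284 and 334 CPM in MEF, at 230 and 203 CPM at day 2 and at 170 to 173 CPM at day 10. Nudt9, which encodes an ADP-ribose hydrolase and lies 388.8 kb before Spp1, was at 35.7 and 33.2 CPM in MEF, at 45.9 and 36.9 CPM at day 2 and at 24.2 to 25.8 CPM at day 10. Over these 3 groups it stood in the same order as Spp1 with no overlap, within a far smaller span.

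**Figure D3:**
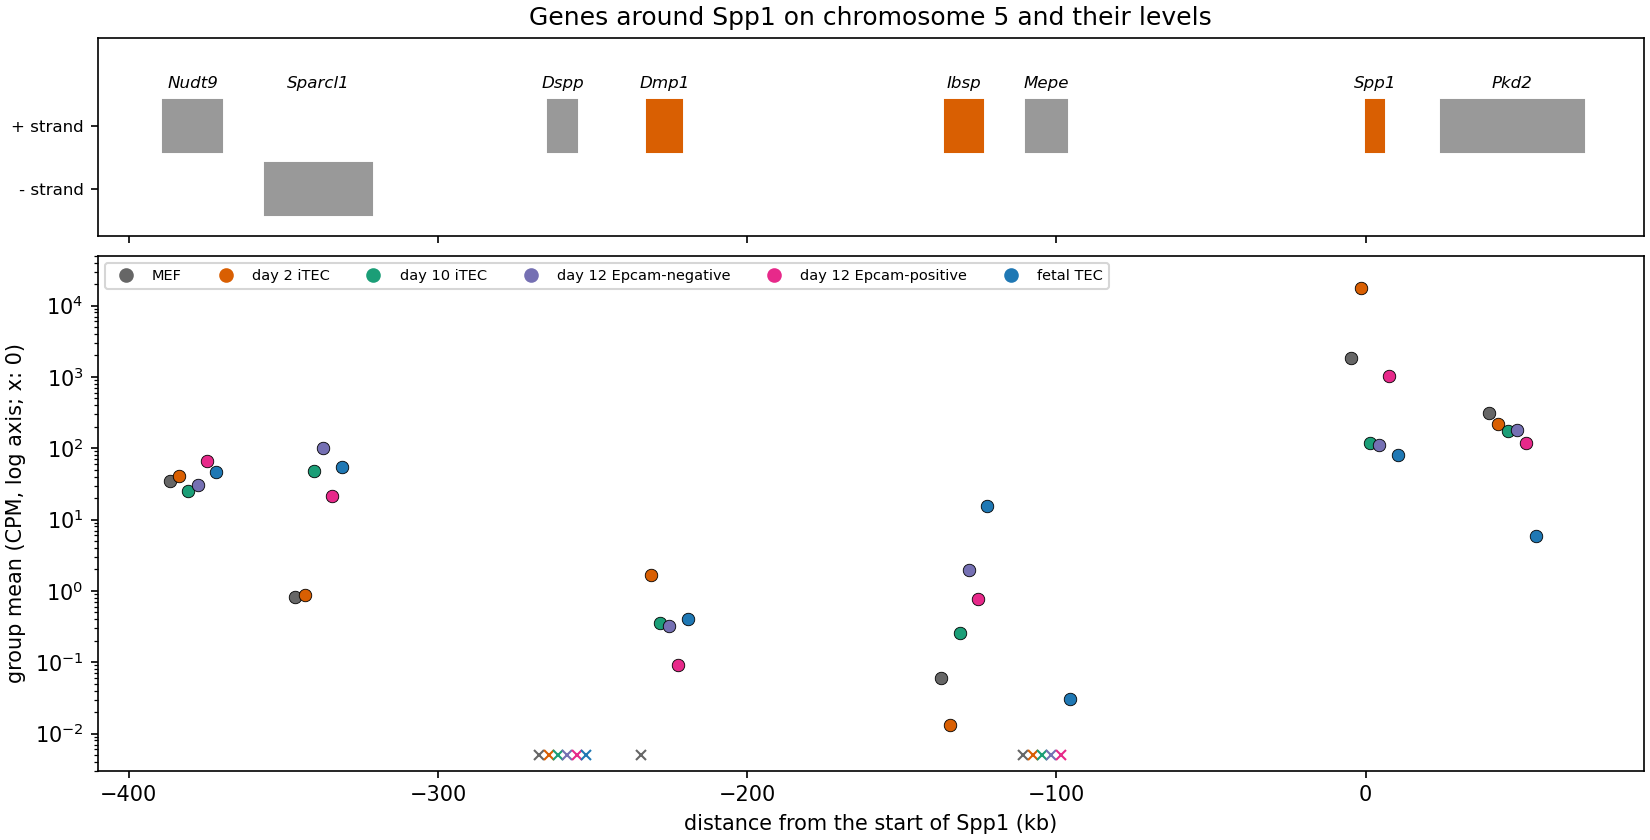
Group mean levels of the genes around Spp1, in CPM on a log axis (crosses mark 0), by distance of each gene's start from that of Spp1 in kb. The day 2 peak is seen at Spp1 and, at a far lower level, at Dmp1, while Ibsp is highest in fetal TEC.

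Levels of different genes can be set beside each other only per kilobase of exon, and only in the 10 libraries where counts rise with length. On that scale the mean level of Spp1 at day 2 was 10630 CPM per kb, that of Runx2 4.03, of Sp7 3.33, of Dmp1 0.597 and of Alpl 0.00644. In Epcam-negative cells Spp1 was at 66.6 CPM per kb, Sp7 at 38.0, Runx2 at 6.15, Alpl at 3.54, Ibsp at 0.950 and Bglap at 0.870. At day 10 Sp7 was at 19.25 CPM per kb and Alpl at 3.40, with Ibsp at 0.125 and Bglap at 0.189. Alpl, Ibsp and Bglap each had their highest group mean in fetal TEC. Whether iTEC share an identity with osteoblasts was not tested.

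Of the 8 genes, 7 were called between fetal TEC and MEF, where 57.8% of all genes were, and 4 of the 5 tested between fetal TEC and day 10, where 59.3% were. Genes higher in fetal TEC made up 31.5% and 31.7% of all genes, and genes lower in it 26.3% and 27.6%. Both comparisons use the same 2 fetal libraries. In the first, Alpl, Ibsp, Dmp1 and Bglap were higher and Spp1, Runx2 and Phex lower; in the second, Ibsp and Bglap were higher and Runx2 and Phex lower.

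**Figure D4:**
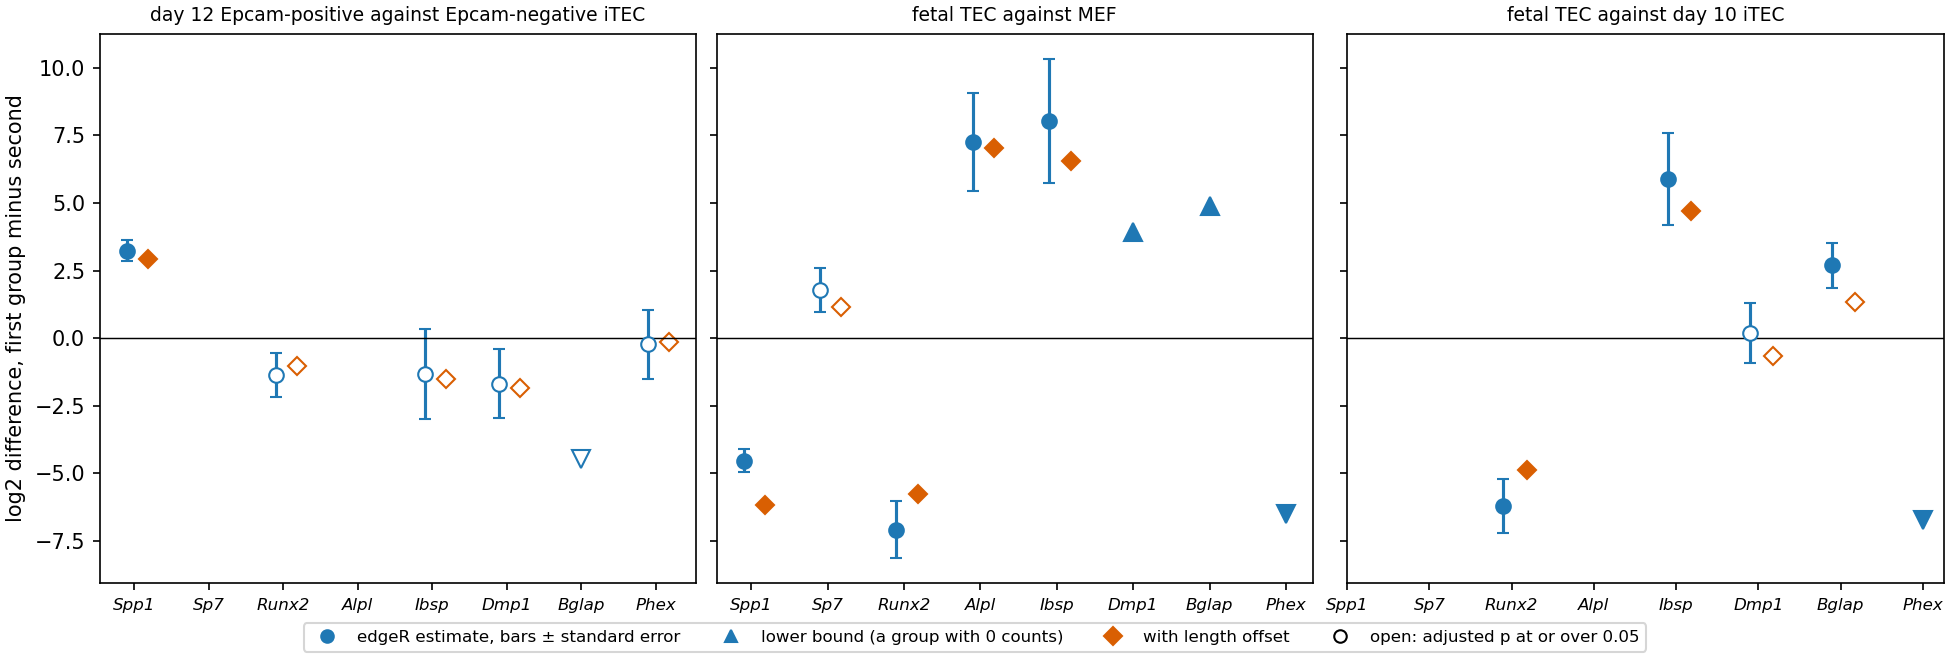
Log2 differences (edgeR, ± SE) in the Epcam sort and in fetal TEC against MEF and against day 10; triangles are lower bounds where a group has no count, orange diamonds use the gene-length offset, open symbols have an adjusted p of 0.05 or more, and values that helped to choose a gene (Sp7 and Alpl in the sort, Spp1, Sp7 and Alpl against day 10) are not shown. Spp1 is 3.23 higher in Epcam-positive than Epcam-negative cells and at -4.53 in fetal TEC against MEF. The Epcam-negative and MEF libraries behind these values also served in the choice of the gene.

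Around these 8, 91 further genes of bone formation were set out in 6 lists by role, and 88 of them were tested in every comparison with edgeR. The lists were drawn up with earlier results of these data known, so their shares beside those of all genes are a description. The day 2, day 10 and Epcam-negative comparisons with MEF share the MEF libraries. At day 2, 8 rose and 7 fell (17.1%, against 5.52% of all genes, 2.87% higher and 2.65% lower), with a median log2 difference of -0.02 against 0 for all genes. Among 14 transcription factors 2 rose and 1 fell. Dlx3, a homeobox factor of bone and skin, rose by 4.84 ± 0.43 (adjusted p = 0.000293). Of 19 signalling genes 2 rose, Bmp2 by 4.35 ± 0.41 (adjusted p = 0.000397) and Wnt10b, both ligands that promote bone formation. Of 13 matrix genes none rose and 3 fell: Omd, Ogn and Mgp, small matrix proteins, at log2 differences of -5.29, -4.18 and -1.79. Of 16 mineralization and phosphate genes 1 rose and 3 fell, among them Fam20a, a partner of the secretory kinase that phosphorylates osteopontin, at -3.76 ± 0.44 (adjusted p = 0.00115). The median over the matrix list was -1.61 and over the mineralization list -0.84. Without day 2 replicate 1 or 2 the 15 calls became 6, and Omd, Ogn and Mgp were lost; without either Epcam-positive library there were 36. Wnt10b was lost without either MEF library (0.0831), while Dlx3, Bmp2 and Fam20a were called whichever library was left out.

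Osteopontin is bound by αv integrins and CD44 and is cut by several metalloproteases, and of these 15 genes 1 rose at day 2 (6.67%, near the 5.52% of all genes called). This was Itgb3, the β3 chain of the vitronectin receptor, at 54.7 and 51.3 CPM in MEF, 171 and 154.4 CPM at day 2, and 48.7 to 49.7 CPM at day 10. Its log2 difference at day 2 was 1.62 ± 0.38 (edgeR adjusted p = 0.0372), a call lost in 9 of the 13 fits that leave out 1 library (up to 0.219). It fell by 1.73 from day 2 to day 10 (adjusted p = 0.00872), lost without either day 2 library (0.083). Itgav, its partner chain, and Cd44 were not called at day 2, at 366.6 and 346.7 CPM for Itgav beside 465.6 and 756.2 CPM in MEF, and at 624.4 and 620.2 CPM for Cd44 beside 502.4 and 728.8 CPM. Of 11 AP-1 and Ets factors, 2 rose at day 2 and none fell (18.2%, against 5.52% of all genes). Fosl1 went from 3.12 and 4.49 CPM to 47.9 and 37.4 CPM, a log2 difference of 3.49 ± 0.51 (adjusted p = 0.00361), and at day 10 was at 4.41 to 5.28 CPM. Etv4 rose by 3.76 ± 0.58 (adjusted p = 0.0053). Both were called whichever library was left out, the size for Etv4 lying between 3.15 and 4.86.

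At day 10, 17 of the 88 were higher than in MEF and 12 lower (33.0%, against 16.0% of all genes, 9.42% higher and 6.58% lower; median 0.05 against 0). Without MEF replicate 2 there were 15 calls in place of 29, and without Epcam-positive replicate 1 there were 52. Of 14 transcription factors 5 rose and 1 fell: Dlx3 rose by 8.03 ± 0.49 (edgeR adjusted p = 2.4e-05), and the Wnt effectors Tcf7 and Lef1 by 4.21 ± 0.54 and 4.02 ± 0.57 (adjusted p = 0.000892 and 0.00151). Of 19 signalling genes 6 rose and 1 fell, with Bmp2 at 4.13, the BMP antagonist Nog at 4.92 (4.50 and 5.52 with 1 MEF library left out), and Wnt10b at 5.86. Bmp7 had no count in MEF and was at 2.15 to 3.21 CPM. No matrix gene rose and 3 of 13 fell. Of 16 mineralization genes 2 rose and 4 fell. Galnt3, which glycosylates the phosphate hormone FGF23, rose by 3.37 ± 0.43 (adjusted p = 0.000818), and the phosphate transporter Slc20a1 fell by 1.84 ± 0.35 (adjusted p = 0.0069). Of 15 receptor and protease genes 1 rose and 3 fell, and of 11 AP-1 and Ets factors 3 rose. The genes named here were called whichever library was left out.

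Between day 2 and day 10, 19 of the 88 rose and 9 fell (31.8%, against 12.6% of all genes, 8.24% higher and 4.41% lower; median 0.69 against 0.02). There were 7 calls without day 2 replicate 1 and 51 without Epcam-positive replicate 1, in place of 28. The median of the 88 with bounds in place of fitted values was 0.62. Dlx3 rose by 3.20 ± 0.37, Tcf7 by 3.44 ± 0.52, Galnt3 by 2.88 ± 0.42 and Nog by 4.82 ± 0.51 (edgeR adjusted p = 0.00065, 0.00258, 0.0021 and 0.000416). Bmp7 went from at most 0.0390 CPM at day 2 to 2.15 to 3.21 CPM at day 10. Fosl1 fell by 3.13 ± 0.43 (adjusted p = 0.00143), in the same interval in which Spp1 was lower. These 6 were called whichever library was left out.

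In Epcam-negative cells, where Sp7 stood highest, 17 of the 88 were higher than in MEF and 14 lower (35.2%, against 11.9% of all genes, 7.37% higher and 4.53% lower; median 0.05 against 0). Leaving out MEF replicate 2 or Epcam-negative replicate 2 gave 11 calls in place of 31. Dlx3, Lef1, Tcf7 and the parathyroid hormone receptor Pth1r rose by 8.27, 4.23, 3.86 and 3.20 on the log2 scale (edgeR adjusted p = 3.62e-05, 0.00172, 0.00187 and 0.00344). Bmp2, Nog and Wnt10b rose by 3.98, 4.76 (Nog 4.34 and 5.36 with 1 MEF library left out) and 6.03 (adjusted p = 0.000306, 0.000462 and 0.00151), and Bmp7, with no count in MEF, was at 23.9 and 23.3 CPM (adjusted p = 0.000169). None of 13 matrix genes rose and 4 fell. Col1a1, the main bone and fibroblast collagen, was at 7277 and 6909 CPM beside 21840 and 27900 CPM in MEF. Fibroblast markers summed to 1289 to 1355 CPM in Epcam-negative cells, 888.2 to 932.3 CPM at day 10, 1534 to 1645 CPM at day 2 and 5101 to 5547 CPM in MEF; their part in the lower matrix genes was not tested. Between the 2 sorted populations none of the 88 was called by edgeR; 18 had an unadjusted p under 0.05, and the DESeq2 Wald test called 15. Without Epcam-positive replicate 1 there were 50 calls, in a fit where the lone, length-skewed library is assumed to vary like the other groups.

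In fetal TEC, most of the pathway genes called were lower. Against MEF, 25 of the 88 were higher and 42 lower (76.1%, against 57.8% of all genes; median -1.43 against 0.18), and against day 10, 21 were higher and 39 lower (68.2%, against 59.3%; median -1.39 against 0.10). Of 13 matrix genes 8 were lower in each comparison and 2 higher. These counts and medians are without the gene-length offset. Both fetal libraries are length-skewed and no MEF or day 10 library is, so in these counts the skew cannot be told apart from the group. Most pathway genes named above as higher at day 10 or in Epcam-negative cells than in MEF were also higher in fetal TEC than in MEF. Without the offset, the log2 differences were 4.66 for Dlx3, 5.35 for Lef1, 5.41 for Tcf7, 5.37 for Bmp2 and 5.46 for Wnt10b. Bmp7, with no count in MEF, was at 102.8 and 114 CPM in fetal TEC. Nog went the other way, at -4.27, and Pth1r and Galnt3 were not called. Postn, an adhesion protein of periosteum and fibroblasts, was lower than at day 10, with a log2 difference of -5.83 (edgeR adjusted p = 0.000285; -4.50 with the length offset). The bone and limb factors Msx2 and Dlx5, at 38.4 to 40.9 and 21.7 to 23.4 CPM at day 10, were at most 0.0459 and 0.199 CPM in fetal TEC. The log2 difference from day 10 was -10.16 for Twist1 and -3.37 for Dlx3 (adjusted p = 0.000158 and 0.000164; -11.45 and -4.30 with the offset), and -9.19 for Nog (adjusted p = 1.63e-05; -10.44 with the offset). Bmp7 was higher by 5.37 (adjusted p = 0.000165). The osteopontin receptor chains Itgb1 and Itgb5 were at log2 differences of -4.04 and -4.44, and Itgb3 at -2.21 (-1.60 with the offset), while the protease Mmp9 was higher by 8.39. The immediate early genes Fos, Jun and Atf3 were higher by 4.73, 3.90 and 5.69 (3.67, 3.27 and 4.55 with the offset). The genes given here against day 10 were called whichever library was left out.

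**Figure D5:**
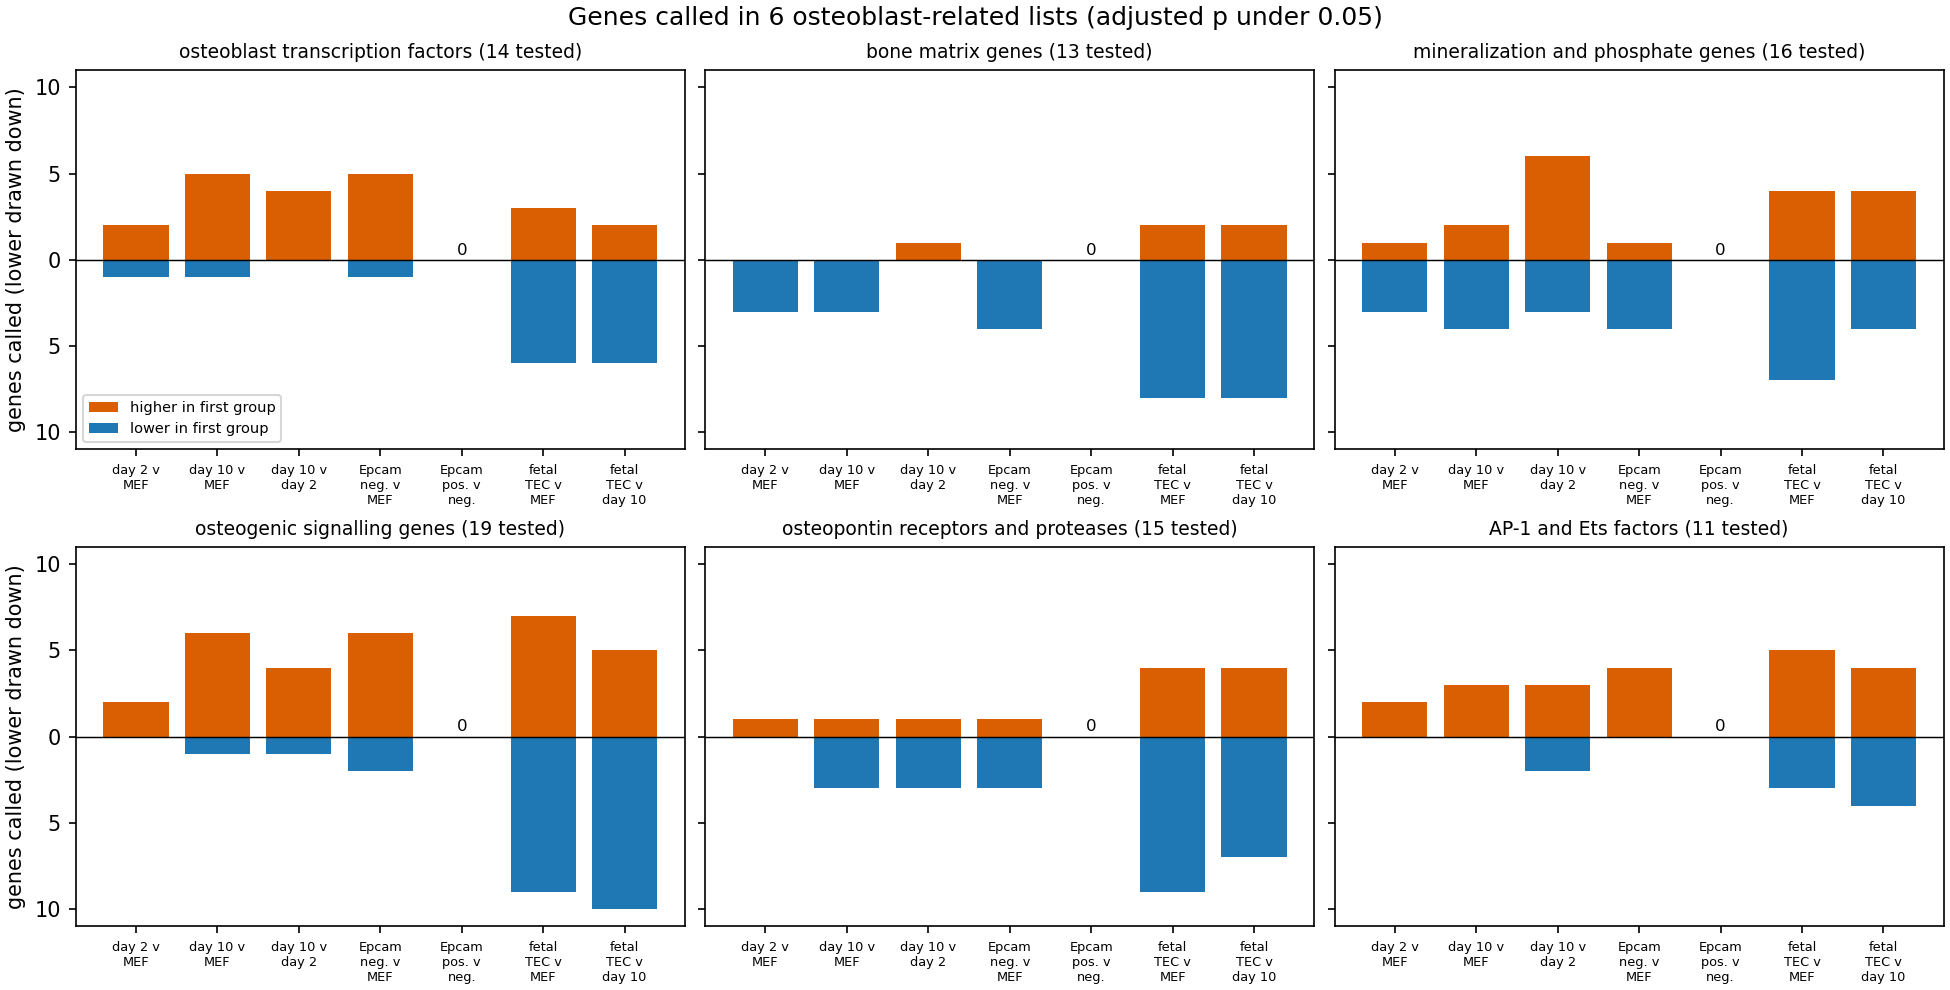
Number of genes called higher (upwards) and lower (downwards) by edgeR in each of 6 lists by role and each of 7 comparisons. The 88 genes tested give 15 calls at day 2, 29 at day 10 and 31 in Epcam-negative cells against MEF, none in the sort, and 67 and 60 in the fetal comparisons.

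The genes whose levels followed Spp1 most closely over the 13 libraries, out of 10539 with a group mean of at least 20 CPM, were Mlkl, a necroptosis effector (Pearson r of log2 CPM 0.955), 9030617O03Rik (0.948), Wdr36 (0.946), Steap1 (0.942), Metap1 (0.910) and Pak1 (0.909). Mlkl was at 97.9 and 86.7 CPM at day 2, beside 10.6 and 16.0 CPM in MEF and 5.18 to 5.53 CPM at day 10. For Sp7 they were Pknox1 (0.989), Opcml (0.985), Tbx2 (0.983) and the leptin receptor gene Lepr (0.982), and for Alpl Ralgps2 (0.971), Rnf43 (0.962), Tspyl4 (0.954) and Unc79 (0.942). The libraries fall into groups of replicates, so each r describes 6 group levels more than 13 separate points.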

How the data were processed

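The deposited file holds raw read counts per gene symbol for 13 libraries, which the authors made with FastQC, Trimmomatic, HISAT2, SAMtools, StringTie and DESeq2 on mm10, per the submitters' processing notes. Versions, strand setting and treatment of reads with several matches are not given in the sources used here. Columns named for cells without Cre were taken as the MEF libraries. The 8 genes, the 6 pathway lists and the marker lists were chosen with earlier results of these data known.

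Counts were filtered by group with filterByExpr, which left 17004 of 24394 genes and all 8 members, scaled by TMM, and fitted in 1 quasi-likelihood model of all 13 libraries with edgeR 4.0.16 (R 4.3.3; limma 3.58.1). A call is a Benjamini-Hochberg adjusted p under 0.05 over all genes tested, two-sided; the common dispersion was 0.296. The code was tested on simulated data. CPM uses effective library sizes (factors 0.705 to 1.16). Bounds replace a group at 0 by 3 counts over the group, with no length correction, and 95% counting intervals cover counting error only. Exon lengths (GENCODE, mm10) were matched for 95.7% of genes. Named pathway genes were drawn from the up to 4 with the smallest p per list and comparison, most-like genes by Pearson r. No pair of replicates agreed within sampling noise. The median chi-square over its expectation from sampling was 1.82 to 3.01 for the day 10 pairs and 14.9 to 880 for the pairs of other groups. Day 10 libraries thus came closest to sampling noise, so their small SDs may be technical. Replicate numbers did not pair the libraries: same-numbered deviations correlated at -0.215 to 0.116 over 15 pairs of groups. Alternatives were DESeq2 1.42.0, other scalings and filters, a fit of the groups compared only, a replicate block, each library left out, and, chosen after seeing the data, a gene-length offset.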

Additional observations from a re-analysis of the deposited data

How the results depend on the processing

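Groups of 2 or 3 libraries limit all tests, and the count of calls rests on the spread that the 13 libraries share. For the 15, 29, 28 and 31 pathway genes called at day 2, at day 10, between day 2 and day 10, and in Epcam-negative cells, fitting only the groups compared gave 33, 57, 68 and 51, and leaving out the 3 length-skewed libraries gave 48, 59, 60 and 62, in which every original call kept its sign. The DESeq2 Wald test gave 29 at day 2, and in the sort 15 in place of 0, while the sort without the 3 skewed libraries gave 22. The replicate block gave 17, 9 and 15 for day 10, day 2 to day 10, and Epcam-negative cells, and the numbers do not pair the libraries. With 1 library left out the counts ran from 6 to 36 (day 2), 15 to 52 (day 10), 7 to 51 (day 2 to day 10), 11 to 50 (Epcam-negative), 0 to 50 (sort), 53 to 75 (fetal TEC against MEF) and 49 to 67 (fetal TEC against day 10).

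Direction turned in 3 tested results that had not passed the threshold: Phex in the sort became 0.70 without the 3 skewed libraries and 0.73 without Epcam-positive replicate 2 (-7.47 without replicate 1), Sp7 between fetal TEC and MEF became -0.065 without fetal replicate 1 (2.54 without replicate 2), and Dmp1 between fetal TEC and day 10 became -0.21 with library size alone, -0.65 with the length offset and -1.09 without fetal replicate 2 (0.85 without replicate 1). Among the differences given without a test, 4 also changed sign over the settings: Ibsp at day 2 against MEF (-4.83 to 3.05), Phex at day 10 against MEF (-0.34 to 0.65), Runx2 from day 2 to day 10 (-0.28 to 0.036) and Runx2 in Epcam-negative cells against MEF (-0.42 to 0.21). The cause was not tested. Library size alone, in place of TMM, moved the median log2 difference of all genes by 0.119 to 0.236 at day 2, day 10 and in Epcam-negative cells against MEF, and the share of calls that were higher from 58.9% to 69.5% at day 10, from 61.9% to 75.7% in Epcam-negative cells and from 93.2% to 71.4% in the sort.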
